A study of Mus musculus with 2 samples.

Results

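ITL23GL is the name given by the study to the intratelencephalic neurons of cortical layer 2/3, and it is carried by 2360 of the 16314 nuclei profiled here from a dissection of the primary motor cortex of the mouse, MOp-2. Members were all nuclei whose deposited annotation read ITL23GL, with no further selection. They numbered 1169 of 7440 nuclei in replicate 1 and 1191 of 8874 in replicate 2. In the embedding these nuclei formed an island of their own, with 99.7% and 99.8% of their nearest neighbours carrying the same name, and their fragment counts stood in the middle of the 7 glutamatergic names.

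Intratelencephalic neurons are glutamatergic projection neurons whose axons stay within the telencephalon. They reach other cortical areas of the same and the opposite hemisphere, the latter through the corpus callosum, and some also reach the striatum. Those of layer 2/3 carry much of the traffic between cortical areas, and in motor cortex they are a main source of input to the output neurons of layer 5. The other names set beside them here are the intratelencephalic neurons of deeper layers (ITL4GL, ITL5GL and ITL6GL), the corticothalamic neurons (CTGL), the pyramidal tract neurons that project to brainstem and spinal cord (PTGL) and the near-projecting neurons (NPGL), which send few long-range axons.

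The tissue came from C57BL/6J male mice of 56 to 63 days, taken from a coronal slice as dissection 3C, and nuclei were put through single-nucleus ATAC-seq, in which a transposase cuts and tags open chromatin, on the droplet-based 10x platform. There was 1 condition, with no treatment and no altered genotype, in 2 libraries named replicate 1 and replicate 2. The methods describe pooled tissue of several mice for each replicate but do not say so separately for these libraries, so the spread between the libraries may hold less than the spread between animals. Replicate 1 held 48179226 unique fragments and replicate 2 held 55337466, no nucleus had fewer than 1000, and 105 barcodes occurred in both libraries. Of these, 28 belonged to ITL23GL in at least 1 library and 3 in both. Leaving them all out gave ITL23GL medians of 8580 and 7883 unique fragments, beside 8576 and 7874 with them.

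The study assigned names by accessibility at marker genes, and lists Cux2, Calb1 and Lamp5 for ITL23GL. Cux2 encodes a homeodomain transcription factor of upper-layer neurons and lies on the minus strand of chromosome 5 from 121856366 to 122050102 (mm10/GRCm38, GENCODE M21). Calb1 encodes the calcium-binding protein calbindin and lies on the plus strand of chromosome 4 from 15881264 to 15908064. Lamp5 encodes a membrane protein of the LAMP family, is also used to name a group of cortical interneurons, and lies on the plus strand of chromosome 2 from 136052239 to 136069917. All 3 are annotated as protein-coding genes. The tables used here hold counts and positions per nucleus and no values per gene, so the name could not be checked against these markers.

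ITL23GL was the most numerous intratelencephalic name. It took 39.4% of the intratelencephalic nuclei in replicate 1 (1169 of 2965, exact Clopper-Pearson 95% interval 37.7 to 41.2) and 35.8% in replicate 2 (1191 of 3326, 34.2 to 37.5), or 37.6% ± 2.56 (SD, n = 2 libraries). The intervals of the 2 libraries did not overlap, and they cover counting error only. For every ITL4GL nucleus there were 2.01 ITL23GL nuclei in replicate 1 (95% counting interval 1.82 to 2.22) and 1.91 in replicate 2 (1.74 to 2.11), which differed by less than counting error. Motor cortex was long described as lacking a layer 4, so the ratio of these neighbouring names is of interest in this tissue. The ratio to ITL6GL was 2.04 (1.85 to 2.25) and 1.63 (1.48 to 1.78), that to ITL5GL 1.82 (1.66 to 2.01) and 1.53 (1.39 to 1.67), and that to CTGL 1.80 (1.63 to 1.98) and 1.21 (1.11 to 1.31). Against PTGL it was 6.35 (5.44 to 7.42) and 3.65 (3.23 to 4.13), and against NPGL 14.1 (11.3 to 17.6) and 19.2 (14.9 to 24.8). The balance of layer 2/3 to layer 4 was therefore close in the 2 libraries, while the intervals of the ratios to ITL6GL, CTGL and PTGL did not overlap between them. ITL23GL made up 15.7% and 13.4% of all nuclei and held 20.7% and 17.4% of all unique fragments of the libraries.

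The embedding is the 2-dimensional UMAP that the authors deposited. Names and positions rest on the same accessibility profiles, so agreement between them is given as a description with no test, and UMAP distances between islands have no fixed scale. ITL23GL formed a triangular island between -7.31 and -2.94 on the second axis, with a left arm, an upper right corner and a tip at the bottom, while nuclei were sparse in its upper middle. The outline was alike in both libraries, and the 2 centres of ITL23GL lay 0.0351 units apart. Nuclei of the libraries were mixed within it. The share of the 30 nearest ITL23GL neighbours that came from the other library was 0.979 of that of random mixing for replicate 1 and 1.00 for replicate 2.

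**Figure D1:**
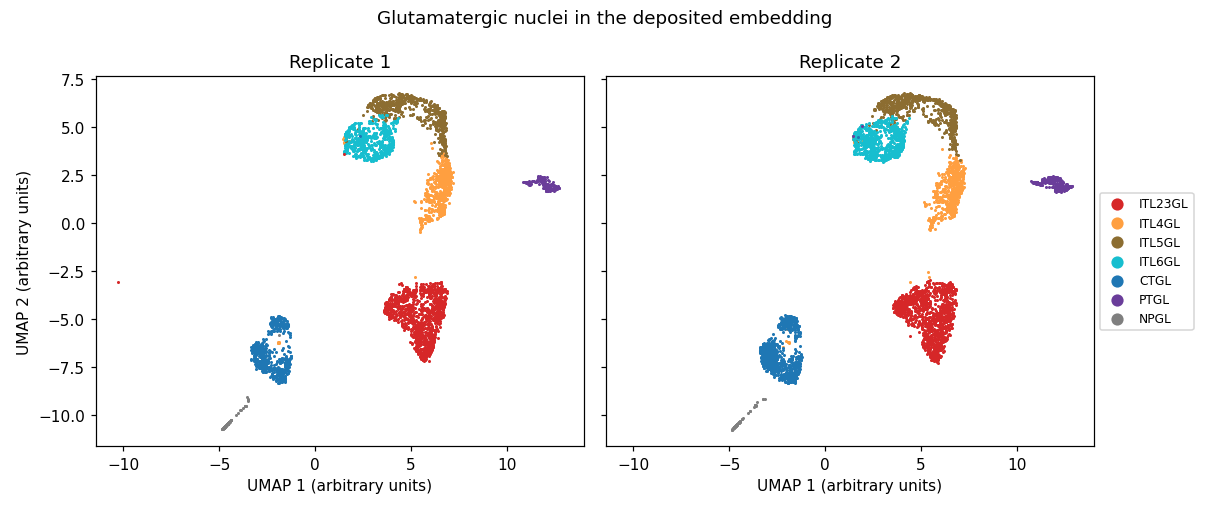
Positions of glutamatergic nuclei on the 2 UMAP axes (arbitrary units) in replicates 1 and 2, 1 point per nucleus coloured by annotated name. ITL23GL forms a separate triangular island in both libraries, whereas ITL4GL, ITL5GL and ITL6GL join into 1 band above it.

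No continuous border with ITL4GL was found. Of the other 16 names, ITL4GL had the nearest centre, at 6.68 units in replicate 1 and 6.58 in replicate 2, or 4.58 and 4.87 times the root mean square distance of ITL23GL nuclei to their own centre. CTGL came next at 7.91 and 7.95 units, followed by the parvalbumin interneurons (PVGA) at 9.40 and 9.45, then PTGL at 9.52 and 9.48 and ITL6GL at 9.55 and 9.50. Over all nuclei, the smallest distance from ITL23GL to ITL4GL was 0.320 units in replicate 1 and 0.156 in replicate 2. Nuclei with fewer than 15 own-name neighbours among their 30 nearest were then left out. Among these were 17 and 26 nuclei of ITL4GL and 2 and 0 of ITL23GL. The smallest distance was then 2.67 and 2.60 units, though this step removes by definition the ITL4GL nuclei lying among ITL23GL. Within ITL23GL the median distance of a nucleus to the nearest other one was 0.0359 and 0.0358. By contrast, the closest ITL4GL and ITL5GL nuclei lay 0.0441 and 0.0150 units apart, and the closest ITL5GL and ITL6GL nuclei 0.0176 and 0.0148. Apart from the nuclei left out, layer 2/3 was thus separate in this embedding from a chain of layer 4, layer 5 and layer 6 names that touched one another.

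Neighbour counts gave the same picture. Taking the 30 nearest nuclei of any name and library, 99.7% of the neighbours of ITL23GL nuclei carried ITL23GL in replicate 1 and 99.8% in replicate 2, beside 97.3% and 96.5% own-name neighbours for ITL4GL, 96.5% and 96.9% for ITL5GL and 95.9% and 96.2% for ITL6GL. CTGL had 99.5% and 99.5%, PTGL 100% and 99.4%, and NPGL 97.9% and 99.4%. All 30 neighbours carried the own name in 1135 ITL23GL nuclei of replicate 1 (97.1%) and 1140 of replicate 2 (95.7%). The corresponding share was 94.7% and 93.9% in ITL4GL, 89.5% and 92.1% in ITL5GL and 70.5% and 70.2% in ITL6GL. It was 94.0% and 94.3% in CTGL, 72.3% and 80.6% in NPGL and, above ITL23GL, 100% and 99.4% in PTGL. At least 1 neighbour from another intratelencephalic name was found for 5 ITL23GL nuclei in replicate 1 (0.428%) and for 6 in replicate 2 (0.504%). The same held for 4.47% and 4.98% of the nuclei of ITL4GL, 10.5% and 7.94% of ITL5GL and 24.8% and 25.5% of ITL6GL. A border nucleus was taken as one with at least 3 ITL4GL nuclei among its 30 neighbours. In replicate 1 this held for 0 of 1169 (exact 95% interval 0 to 0.315, or up to 0.257% by 3 counts of the total). In replicate 2 it held for 1 of 1191 (0.0840%, exact 95% interval 0.00213 to 0.467).

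**Figure D2:**
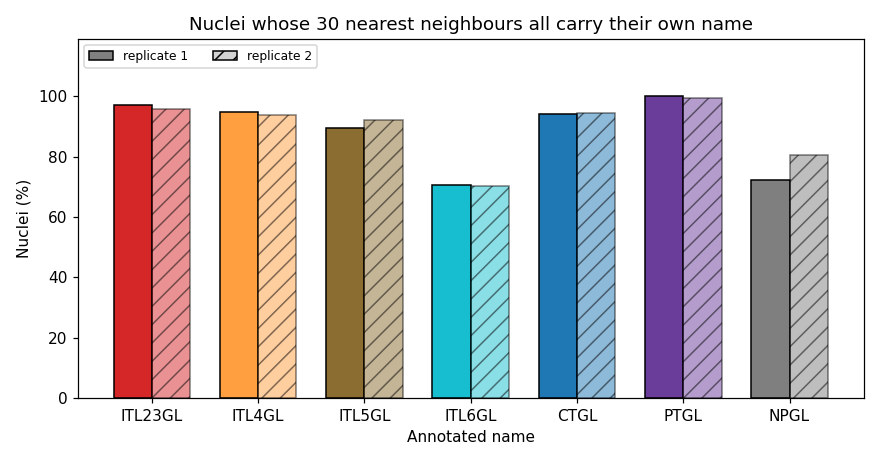
Percent of nuclei (vertical axis) whose 30 nearest neighbours in the embedding all carry their own name, by glutamatergic name, with replicate 1 in solid and replicate 2 in hatched bars. ITL23GL reaches 97.1% and 95.7%, above the other intratelencephalic names and below PTGL with 100% and 99.4%. ITL6GL is lowest with 70.5% and 70.2%.

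The neighbours of another name went back to 9 nuclei. Among them, 1 ITL4GL nucleus of replicate 1 and 3 of replicate 2 lay near or above the upper end of the ITL23GL island. That end was at -3.07 on the second axis in replicate 1 and -2.94 in replicate 2. The ITL4GL nucleus of replicate 1 lay at -2.79, and those of replicate 2 at -2.80, -3.06 and -2.54. These ITL4GL nuclei each had at least 28 ITL23GL nuclei among their 30 neighbours. They had between 4539 and 11508 unique fragments, a range that includes the ITL4GL medians of 7393 and 7249. Another 3 nuclei, 1 in replicate 1 and 2 in replicate 2, were annotated as vascular endothelial cells (VEC) and lay inside the island with 29 or 30 ITL23GL neighbours. The VEC nucleus of replicate 1 had 8913 unique fragments, where the median of VEC was 4256, and those of replicate 2 had 5642 and 3163, where it was 3252. The last 2 were ITL23GL nuclei of replicate 1 with no ITL23GL neighbour. One lay among ITL6GL nuclei and had 12068 unique fragments, and the other lay among oligodendrocytes (OGC) with 1135, close to the minimum. Without these 9 nuclei, every neighbour of an ITL23GL nucleus carried ITL23GL. Doublets had been removed by the authors, and whether any of the 9 barcodes held more than 1 nucleus was not tested.

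Unique fragments, the counts left after mapping, pairing and removal of duplicates, measure how deeply a nucleus was sampled. ITL23GL nuclei of replicate 1 had a lowest count of 1023, a median of 8576 (quartiles 6672 and 10327) and a highest count of 21626. Those of replicate 2 had a lowest count of 1013, a median of 7874 (quartiles 5541.5 and 10171.5) and a highest count of 26564. The medians of the 2 libraries averaged 8225 ± 496 (SD, n = 2). All 7 glutamatergic names had the lower median in replicate 2.

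ITL23GL ranked 4 of 7 by median in replicate 1 and 3 of 7 in replicate 2. PTGL, large neurons of layer 5, had 10998 and 10524, so the ITL23GL median was 0.780 and 0.748 of theirs (log2 difference of -0.39 ± 0.042, SD, n = 2). It was 0.915 and 0.941 of ITL5GL, whose medians were 9370 and 8370 (log2 difference of -0.11 ± 0.028). ITL23GL and ITL6GL were hardly apart, with ratios of 0.970 and 1.00 and a mean log2 difference of -0.022 ± 0.032 that was smaller than the spread between the libraries. On the other side, the ITL23GL median was 1.16 and 1.09 times that of ITL4GL (log2 difference of 0.17 ± 0.067). It was 1.13 and 1.11 times that of CTGL, with 7601 and 7107, and 1.28 and 1.23 times that of NPGL, with 6715 and 6388. PTGL and ITL5GL lay above ITL23GL, and ITL4GL, CTGL and NPGL below it, in both libraries. Against the mean of the 6 other names the log2 difference was 0.035 in replicate 1 and 0.011 in replicate 2, or 0.023 ± 0.017 (SD, n = 2). An exact permutation test over the 2 paired libraries gave a two-sided p of 0.5, the smallest that 2 libraries allow, so no difference of this kind could pass a threshold here.

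**Figure D3:**
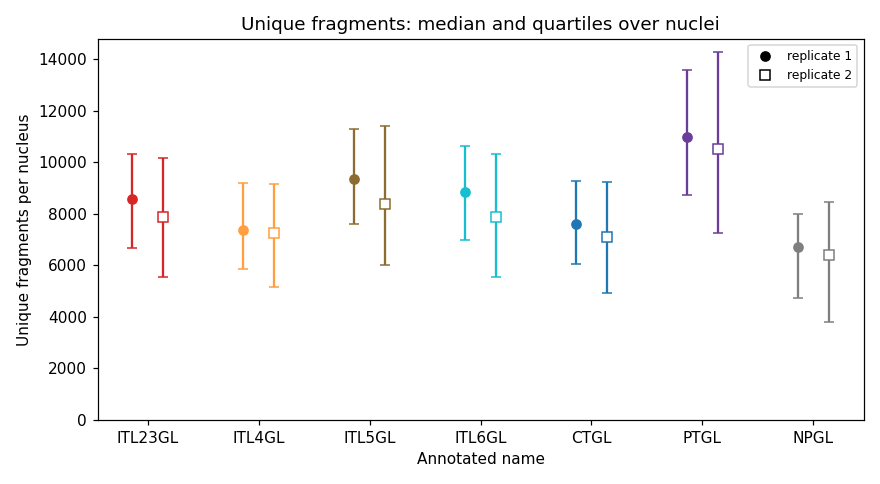
Unique fragments per nucleus (vertical axis) by glutamatergic name, as medians with quartiles over nuclei, filled circles for replicate 1 and open squares for replicate 2. The ITL23GL medians of 8576 and 7874 lie below PTGL and ITL5GL, level with ITL6GL and above ITL4GL, CTGL and NPGL, and all quartile ranges overlap with that of ITL23GL.

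Fragment counts varied widely among ITL23GL nuclei. The upper quartile was 1.55 times the lower one in replicate 1 and 1.84 times in replicate 2. The SD of log10 unique fragments was 0.200 in replicate 1 and 0.228 in replicate 2, and it was wider in replicate 2 for all 7 glutamatergic names. Fewer than 5000 unique fragments were found in 12.2% of ITL23GL nuclei in replicate 1 (exact 95% interval 10.4 to 14.2) and 19.7% in replicate 2 (17.5 to 22.1). The share was 14.3% and 24.1% in ITL4GL, 7.33% and 15.2% in ITL5GL and 9.60% and 19.0% in ITL6GL. In CTGL it was 15.2% and 25.6%, in PTGL 6.52% and 12.3% and in NPGL 26.5% and 40.3%. Fewer than 2000 were found in 31 ITL23GL nuclei (2.65%, 1.81 to 3.74) and 34 ITL23GL nuclei (2.85%, 1.98 to 3.97). The 6 other names ranged from 1.09% to 4.82% in replicate 1 and from 2.32% to 6.45% in replicate 2. At the upper end, the 6 other names had from 0% (NPGL) to 2.72% (PTGL) of nuclei with more than 20000 unique fragments in replicate 1. In replicate 2 they had from 0% (NPGL) to 4.29% (PTGL). In ITL23GL, 1 nucleus of replicate 1 (0.0855%) and 11 of replicate 2 (0.924%) had more than 20000. At least 2 times the median of their own library was reached by 10 nuclei in replicate 1 (0.855%, 0.411 to 1.57) and 34 in replicate 2 (2.85%, 1.98 to 3.97), beside 1.25% (0.869 to 1.75) and 3.48% (2.89 to 4.14) of the nuclei of the 6 other names against the medians of their own names. None of these 44 deep ITL23GL nuclei had an ITL4GL neighbour, and each had at least 93.3% own-name neighbours. Over all ITL23GL nuclei, only 4 of 1169 (0.342%) and 6 of 1191 (0.504%) had an ITL4GL neighbour, so this does not set the deep nuclei apart.

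The fragment counts also give the yield at each step of processing. A median of 96.1% of the total fragments of an ITL23GL nucleus were uniquely mapped in replicate 1 (quartiles 95.9 and 96.3) and 96.3% in replicate 2 (96.1 and 96.6). Fewer than 95% were mapped in 13 nuclei (1.11%) and 33 nuclei (2.77%). The 6 other names ranged from 0.524% to 4.82% in replicate 1 and from 2.76% to 8.06% in replicate 2. Against the mean of the 6 other names, the mapped share of ITL23GL was 0.020 percentage points higher in replicate 1 and 0.12 higher in replicate 2 (mean 0.070 ± 0.071, SD, n = 2, exact permutation two-sided p = 0.5). It was higher than in ITL4GL, CTGL, PTGL and NPGL and lower than in ITL5GL and ITL6GL in both libraries, and against the 3 other intratelencephalic names alone the mean difference was -0.021. With the nuclei of the 6 names pooled in place of equal weights the difference was -0.017 and 0.072, so that the sign was not shared, and in bins of equal fragments against the pooled nuclei ITL23GL was higher in 2 of 10 bins in replicate 1 and in 9 of 10 in replicate 2. With sums over nuclei in place of medians it was 2.18 and 0.159 (mean 1.17), where the summed mapped share of NPGL in replicate 1 was 83.0%, with 1 nucleus at 3.01%. By medians, the difference was no larger than the spread between the libraries.

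Of the uniquely mapped fragments, a median of 99.46% were properly paired in replicate 1 and 99.50% in replicate 2. ITL23GL ranked 6 of 7 in both libraries, above NPGL only. Its difference was -0.0249 and -0.0339 percentage points from ITL4GL, -0.0121 and -0.0210 from CTGL, and between -0.0164 and -0.0041 from ITL5GL, ITL6GL and PTGL. The paired share rose with unique fragments (Spearman's rho over ITL23GL nuclei 0.533 in replicate 1, n = 1169, and 0.480 in replicate 2, n = 1191). In bins of equal fragments ITL23GL was lower than the other names together in 8 of 10 bins in replicate 1 and 9 of 10 in replicate 2, with bin differences from -0.0745 to 0.0178 and from -0.0839 to 0.00602 percentage points. Against the mean of all 6 names, NPGL included, the difference was -0.0024 and -0.0077 (mean -0.0051 ± 0.0037, exact permutation two-sided p = 0.5). The small deficit in paired fragments had the same sign in both libraries against 5 of 6 names, at a size far below the quartile range over nuclei, which ran from 99.3 to 99.6 in replicate 1.

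Duplicates are repeat reads of 1 fragment and report how exhaustively a library was sequenced. The duplicate share used here is 1 minus unique over properly paired fragments, so fragments removed for their length would also count in it. Its median over ITL23GL nuclei was 13.6% in replicate 1 (quartiles 13.1 and 14.0) and 14.5% in replicate 2 (14.02 and 14.97). All 7 glutamatergic names were higher in replicate 2. Against the mean of the 6 other names ITL23GL was 0.013 and 0.047 percentage points higher (mean 0.030 ± 0.024, SD, n = 2, exact permutation two-sided p = 0.5). Name by name the signs differed. ITL23GL was higher than ITL5GL (0.077 and 0.075) and PTGL (0.15 and 0.10) in both libraries, lower than ITL4GL (-0.030 and -0.015), ITL6GL (-0.043 and -0.022) and CTGL (-0.028 and -0.043) in both, and differed by -0.046 and 0.19 from NPGL. The duplicate share rose with unique fragments within ITL23GL, with rho of 0.421 in replicate 1 (n = 1169) and 0.309 in replicate 2 (n = 1191). From the lowest to the highest of 10 bins it rose from 12.8% to 13.9% in replicate 1 and from 13.8% to 14.8% in replicate 2. Over bins of equal fragments, ITL23GL was higher than the pooled nuclei of the other names in 6 of 10 bins in replicate 1 and 7 of 10 in replicate 2. The mean difference was then -0.014 and 0.034 percentage points, of opposite sign in the 2 libraries (mean 0.010 ± 0.034, exact permutation two-sided p = 1).

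**Figure D4:**
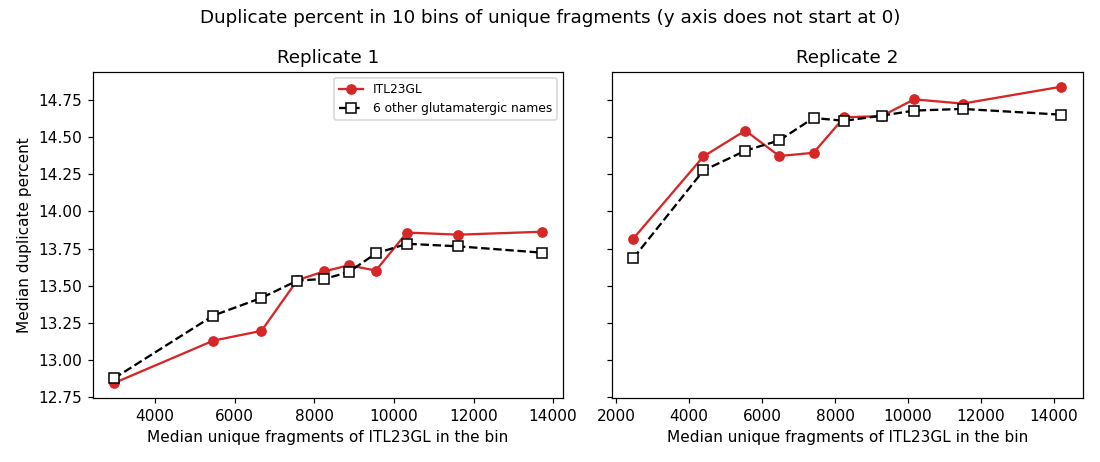
Median duplicate percent (vertical axis, not from 0) against the median unique fragments of ITL23GL in each of 10 bins, for ITL23GL (filled circles) and the 6 other glutamatergic names in the same bins (open squares), in replicates 1 and 2. Both lines rise with fragments and cross each other, and the bin differences run from -0.223 to 0.141 and from -0.235 to 0.189 percentage points.

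A handful of shallow ITL23GL nuclei did not follow this relation. Fewer than 5% duplicates were found in 7 nuclei of replicate 1, between 1.85% and 4.19%, and in 4 nuclei of replicate 2, between 2.03% and 3.37%. All 11 had few fragments, 1023 to 1694 in replicate 1 and 1013 to 1601 in replicate 2. The other ITL23GL nuclei with fewer than 2000 fragments, 24 and 30 in number, had medians of 12.1% and 13.5%, and none was below 9.82% and 8.11%, which left no ITL23GL nucleus of that depth between 4.19% and 9.82% in replicate 1 or between 3.37% and 8.11% in replicate 2. The mapped shares of the 11 (medians of 96.1% and 96.1%) were near those of ITL23GL as a whole, and their nearest neighbours were at least 96.7% ITL23GL. Such nuclei were not particular to the name. They were 7 of 2713 in the 6 other names in replicate 1 (0.258%, exact 95% interval 0.104 to 0.531) and 15 of 3510 in replicate 2 (0.427%, 0.239 to 0.704), beside 0.599% (0.241 to 1.23) and 0.336% (0.0916 to 0.858) in ITL23GL.

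Unique fragments varied little with position on the line that runs from the ITL23GL centre to that of ITL4GL. Spearman's rho of position with unique fragments was 0.032 in replicate 1 (n = 1169) and 0.050 in replicate 2 (n = 1191). Cut into 4 equal sets by position, from the farthest from ITL4GL to the nearest, the nuclei of replicate 1 had medians of 8262, 8573.5, 9054.5 and 8250. Those of replicate 2 had 7598.5, 7834.5, 7667 and 8251. The highest set was the one before the last in replicate 1 and the last in replicate 2, so the libraries shared no trend.

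The island itself was divided into its 3 corners by limits drawn after the positions had been seen, a left arm below 4.5 on the first axis, a bottom tip below -6 on the second, and a right corner above 6 on the first and -5 on the second. Each corner held a like share of the island in both libraries. The left arm had 17.1% (exact 95% interval 14.9 to 19.3) and 18.8% (16.6 to 21.1), the bottom tip 20.4% (18.1 to 22.8) and 20.4% (18.1 to 22.8), and the right corner 19.0% (16.8 to 21.4) and 17.5% (15.4 to 19.8). Intervals of the same corner overlapped between the libraries throughout. The sources used here hold no finer names for the corners, and the tables no gene values by which to describe them.

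The corners differed slightly in mapped share. In the left arm a median of 95.96% of fragments were uniquely mapped in replicate 1 and 96.22% in replicate 2, against 96.14% and 96.38% in the right corner and 96.16% and 96.32% in the bottom tip. The difference of the left arm from the right corner was -0.181 and -0.153 percentage points (mean -0.167 ± 0.0193, SD, n = 2), and that from the bottom tip was -0.200 and -0.0964. Quartiles of single nuclei overlapped widely, at 95.76 and 96.18 in the left arm and 95.95 and 96.36 in the right corner of replicate 1. Over all nuclei of the island, rho of the first axis with mapped share was 0.160 in replicate 1 (n = 1167) and 0.138 in replicate 2 (n = 1191). The bottom tip had the lowest median of unique fragments in both libraries, and the order of the other two differed. In replicate 1 the left arm had 9278, the right corner 8323 and the tip 8230.5, while in replicate 2 the right corner had 8387, the left arm 7960 and the tip 7597. For the left arm against the right corner the log2 difference was 0.16 in replicate 1 and -0.075 in replicate 2, and for the tip against the right corner it was -0.016 and -0.14. For the left arm against the tip it was 0.17 and 0.067. The mapped share was thus lower in the left arm than in either other corner in both libraries. Over all ITL23GL nuclei, rho of mapped share with unique fragments was -0.055 in replicate 1 (n = 1169) and -0.19 in replicate 2 (n = 1191). What the share follows was not tested.

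**Figure D5:**
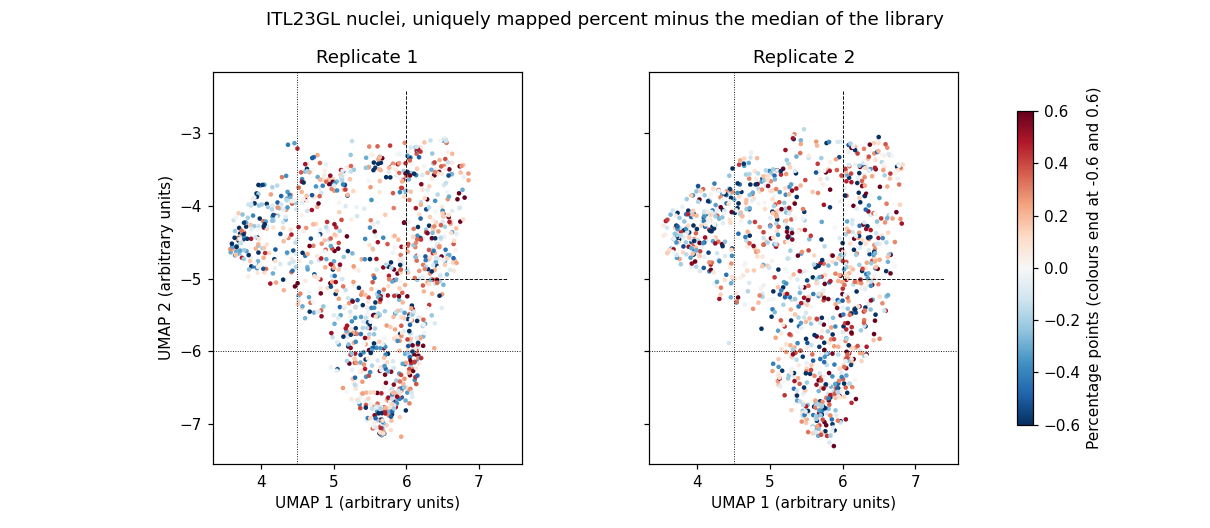
ITL23GL nuclei on the 2 UMAP axes (arbitrary units) in replicates 1 and 2, coloured by uniquely mapped percent minus the ITL23GL median of the library, in percentage points, with lines at the limits of the 3 corners. Blue points are more frequent in the left arm, whose median differs from that of the right corner by -0.181 and -0.153 points, and all corners hold both colours.

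Crowding within the island was uneven. An ITL23GL nucleus had a median of 29 others of its library within 0.25 units in replicate 1 (quartiles 21 and 37) and 30 in replicate 2 (21 and 36). In replicate 1 the bottom tip was the most crowded corner, with a median of 43, followed by the left arm with 33 and the right corner with 29. In replicate 2 the left arm (40.5) and the tip (38) were both above the right corner (27). Crowding went with fragment counts only weakly, with rho of 0.0599 and 0.0288. The most crowded nuclei, cut at the upper quartile (316 and 329 nuclei), had medians of 8754.5 and 7982 unique fragments. The least crowded, cut at the lower quartile (301 and 308 nuclei), had 8341 and 7671.5.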

How the data were processed

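The authors deposited 1 table per library with 1 row per nucleus, holding an annotated name and UMAP coordinates, which are positions treated as a score with no unit. It also holds the authors' deposited counts of fragments left at each step, as whole numbers, from all fragments (TN) to those mapped uniquely (UM), those in proper pairs (PP) and those left without duplicates (UQ), and a mitochondrial count of 0 throughout. A log10 column of unique fragments deposited by the authors was not used. The methods describe alignment with bwa to mm10, removal of poorly mapped, improperly paired and long fragments and, by SnapTools, of duplicates, then filters of nuclei by fragment number, by TSS enrichment and by doublet score. BWA and Cell Ranger ATAC are both named in the submitters' processing notes, with role and version of the second not given in the sources used here. Column meanings follow SnapTools. A minimum of 1000 fragments removes shallow nuclei, so low ends of the counts are truncated. Which nuclei entered the embedding is not stated in them.

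Medians over nuclei were taken per name and library, differences within each library, and mean ± SD over 2 libraries. Nuclei are not replicates, so no p-value was made from them. Names were weighted equally, and pooled in bins. The duplicate share is 1 minus unique over properly paired fragments, so it would also count fragments removed as long. It was matched in 10 bins of ITL23GL fragments. The text names the 3 markers that the study lists for ITL23GL and all 7 glutamatergic names. Members, lists and comparisons were chosen with earlier results of these data known. Corners, crowding, low-duplicate nuclei and bins of paired and mapped shares were added after the data were seen. Scripts were tested on simulated data. Python 3.11.15 was used with scipy 1.17.1, numpy 2.4.6, matplotlib 3.10.9, pandas 2.3.3 and seed 1.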

Additional observations from a re-analysis of the deposited data

How the results depend on the processing

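Values here are means over 2 libraries. Leaving out 1 library in turn gives the value of the other, which cannot differ from the mean of 2 by more than 1 SD. For duplicates at equal fragments it gave -0.014 to 0.034 percentage points, so the sign rested on replicate 2. Of 95 other alternative values, 76 kept the sign of a difference or moved by less than 1 SD. Keeping the sign was no sign of a stable size, since 13 of the 25 differences that kept it moved by over 1.5 times. Over the alternatives the log2 difference in fragments ran from 0.012 to 0.049, the mapped share from -0.021 to 1.17, the paired share from -0.016 to 0.0013, duplicates from 0.0071 to 0.062 and duplicates at equal fragments from -0.010 to 0.024 percentage points. The mapped share turned to -0.021 percentage points against the 3 other intratelencephalic names, the paired share to 0.0013 with sums over nuclei (ITL23GL still ranked 6 of 7 in both libraries), and duplicates at equal fragments to -0.010 without the 5% deepest nuclei. Sums gave 1.17 for the mapped share, and pooled nuclei or intratelencephalic names only gave -0.014 and -0.016 for the paired share and 0.011 and 0.0071 for duplicates. The cause was not tested. With at least 5000 fragments the ratio to ITL4GL was 2.04, the median 8884 and own-name neighbours 99.8%. The SD of log10 fragments was 0.180 at 2000 fragments and 0.125 at 5000, as a minimum narrows it. Own-name neighbours were 99.7% with ITL23GL thinned to the number of ITL4GL nuclei, 99.9% among glutamatergic nuclei only and 100% without all nuclei of any name lying away from it, an alternative added after the data were seen. That alternative gave 0% ITL4GL neighbours and a centre distance of 4.94 spreads. The border share was 0.254% with 10 neighbours, 0.161% after thinning and 0.423% at 1 of 30 neighbours. With median distances the spread was 1.31 and the centre distance 5.06 spreads. The Spearman correlation of position with fragments was 0.026 without the deepest nuclei.

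No paired analysis was possible because the study has 1 condition here, so no conditions can be paired. Differences between names were taken within each library. A planned difference in fragments between border and interior nuclei was computed only for libraries with at least 10 border nuclei, a minimum that the plan did not hold, and the most under the settings run was 6. With 2 libraries the smallest p of the exact permutation test was 0.5. Doublet scores and TSS enrichment were not used here.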
